A study of Mus musculus with 6 samples.

Results

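T cell receptor (TCR) and immunoglobulin segment genes were followed in donor CD8+ T cells from the BM of GC-treated and vehicle-treated recipients. They were chosen by symbol from the 14051 genes in the deposited table, and 141 genes matched. The symbols covered V segments of the TCR and immunoglobulin loci, TCR J segments and TCR constant genes. They also covered the Ighm, Ighd, Ighg, Igkc and Iglc constant genes and Jchain, but no other immunoglobulin constant genes and no immunoglobulin J segments. The alpha locus contributed 94 genes, all of them V segments (Trav), and the beta locus 21, comprising 19 V segments (Trbv) and both constant genes (Trbc1 and Trbc2). The gamma locus contributed 8, the delta locus 4 and the immunoglobulin loci with Jchain 14. J segments and Trac were not analysed here. The test was run on the 125 genes whose normalized count was 10 or more in 3 or more libraries, including 92 Trav and 18 Trbv.

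The study asked how peritransplant GC treatment alters donor T cells after MHC-haploidentical BMT. Irradiated B6D2F1 recipients (H-2b/d, offspring of C57BL/6 and DBA/2 parents) received CD3+ T cells purified from B6.CD45.1+ donor mice. Both groups were injected daily from day -1 to day 5 and collected on day 5. GC-treated recipients were given water-soluble dexamethasone i.p. at 5 mg/kg/day, and vehicle-treated recipients were given methyl β-cyclodextrin in PBS. Donor CD45.1+CD8+ T cells labelled by i.v. anti-CD45 PE, that is, cells in contact with the circulation, were isolated by FACS from the combined BM of 2 to 3 mice per biological group, and bulk RNA-Seq was performed on 3 GC and 3 vehicle libraries. Whether each library came from its own pool of mice was not stated, so p-values measure the spread between these libraries, which may be partly technical. Listed genes drew between 60949593 and 76888118 reads in a library, of which segment genes took 0.230% to 0.296%. In bulk libraries such as these, fewer cells of a type and less RNA per cell cannot be told apart. The CD8 T cell identity was clear in every library: all 7 markers examined were listed, with Cd8a between 63285 and 93850 normalized counts, whereas Cd4 was between 86.3 and 178.

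Each developing T cell joins a V and a J segment of its TCR genes, with a D segment between them at the beta and delta loci, and the join, spliced to a constant gene, encodes the clonotypic receptor that recognises peptide and MHC. CD8+ T cells carry alpha-beta receptors, whereas gamma-delta T cells use the Trg and Trd loci and B cells rearrange the immunoglobulin loci. Reads on a V segment therefore reflect how much receptor mRNA in a population comes from cells that chose it, and a clonal or superantigen-driven expansion can shift this distribution. DBA/2 mice carry Mls-1a, an endogenous retroviral superantigen absent from C57BL/6, which stimulates T cells using Vβ6, Vβ7, Vβ8.1 or Vβ9. These correspond to Trbv19, Trbv29, Trbv13-3 and Trbv17.

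The beta V segments that respond to Mls-1a are shown first, because the largest segment in every library was one of them. They are read from the GRCm39 reference, a C57BL/6 genome and thus the donor background, on the plus strand of chromosome 6. Capitals run from the last TGTGC, which holds the codon of the conserved cysteine that opens CDR3, to the 3′ end where recombination joins the D segment. Shown are the last 240 bases of Trbv19 (chr6:41155743-41155982) and the last 90 bases of Trbv17 (chr6:41140401-41140490), Trbv13-3 (chr6:41107430-41107519) and Trbv29 (chr6:41248726-41248815).
Trbv19: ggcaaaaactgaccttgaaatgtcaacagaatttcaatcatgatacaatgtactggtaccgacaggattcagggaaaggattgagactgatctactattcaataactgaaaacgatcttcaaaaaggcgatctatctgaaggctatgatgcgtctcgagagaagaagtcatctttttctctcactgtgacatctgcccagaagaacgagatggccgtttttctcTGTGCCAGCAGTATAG
Trbv17: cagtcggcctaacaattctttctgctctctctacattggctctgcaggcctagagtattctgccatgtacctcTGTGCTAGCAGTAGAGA
Trbv13-3: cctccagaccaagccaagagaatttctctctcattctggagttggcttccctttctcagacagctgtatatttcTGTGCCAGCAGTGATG
Trbv29: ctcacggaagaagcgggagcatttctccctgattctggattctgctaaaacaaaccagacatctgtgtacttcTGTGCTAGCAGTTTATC
The letters TGTGC lay on the coding strand within the last 40 bases of 17 of the 19 Trbv segments (89.5%) and 72 of the 94 Trav segments (76.6%). On the opposite strand they were found in 0 Trbv segments and 1 Trav segment (1.06%).

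The summed levels of the alpha, beta, gamma, delta and immunoglobulin genes overlapped between GC-treated and vehicle-treated libraries. Beta genes made 1842, 1971 and 2231 RPM (reads per 1000000 reads on listed genes) in the GC libraries, against 1844, 1927 and 1682 in the vehicle libraries (2015 ± 198 and 1818 ± 125, SD, n = 3 each). Alpha V genes made 324.5, 387.2 and 376.6 RPM in GC libraries, against 336.9, 341.8 and 314.2 in vehicle libraries (363 ± 33.5 and 331 ± 14.7, SD, n = 3 each). The log2 difference was 0.15 for beta and 0.13 for alpha (exact permutation test, two-sided, p = 0.3 and adjusted p = 0.5 for each). With 1 library left out it ran between 0.07 (without GC 3) and 0.21 (without GC 1) for beta and between 0.08 (without GC 2) and 0.21 (without GC 1) for alpha.

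The gamma genes differed most and varied most, with 18.4, 30.2 and 32.9 RPM in GC libraries, against 12.8, 18.2 and 27.9 in vehicle libraries (log2 difference 0.50, exact p = 0.2, adjusted p = 0.5). The gamma difference was 0.23 without vehicle 1 and 0.79 without vehicle 3. Delta genes were rare in both groups, at 1.77, 2.22 and 2.003 RPM in GC libraries and 2.20, 1.25 and 1.91 in vehicle libraries (log2 difference 0.20, exact p = 0.6, adjusted p = 0.6). Immunoglobulin genes made 355.8, 274.4 and 314.9 RPM in GC libraries, against 353.9, 425.3 and 274.8 in vehicle libraries (log2 difference -0.14, exact p = 0.6, adjusted p = 0.6). With 3 libraries against 3, the exact test cannot give a p below 0.1. Leaving out vehicle 2 turned the sign of the delta difference, to -0.04, and of the immunoglobulin difference, to 0.0064.

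**Figure D1:**
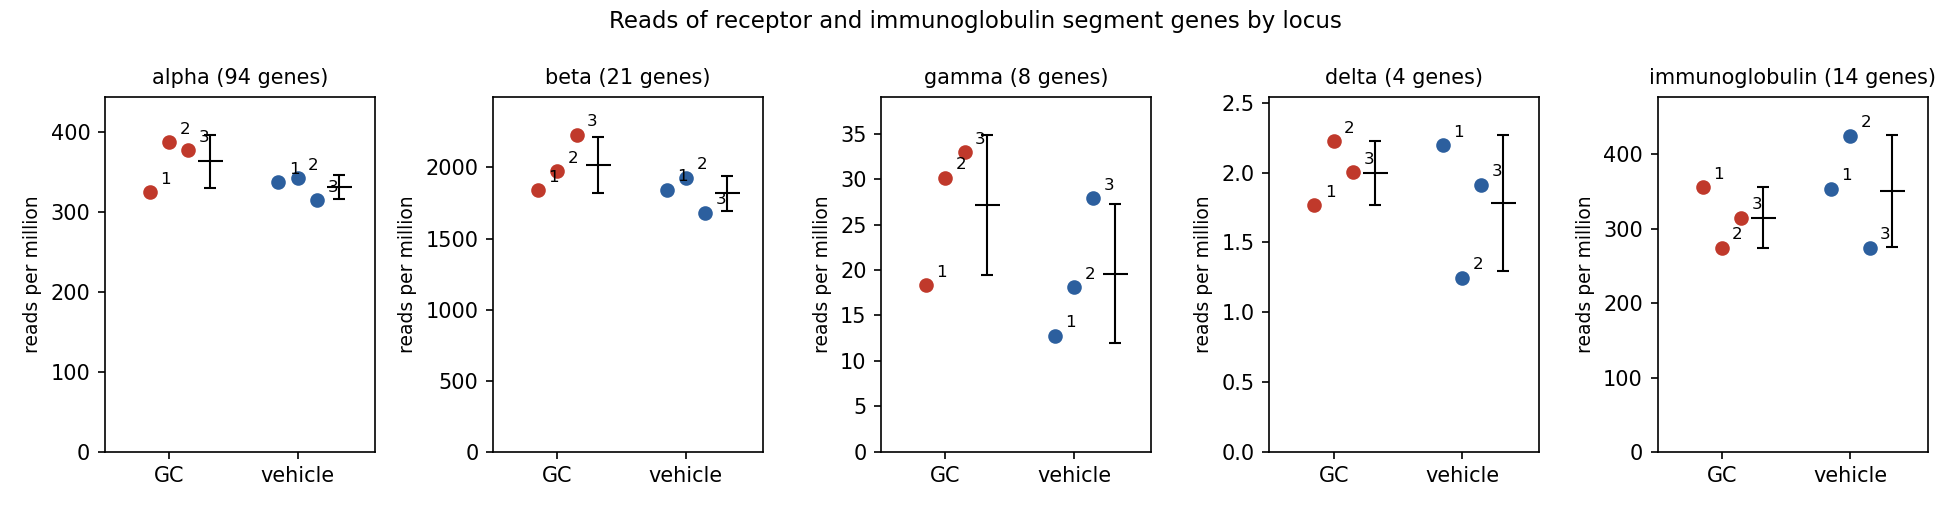
RPM for the alpha, beta, gamma, delta and immunoglobulin genes, with 1 point per library (red, GC; blue, vehicle; numbers are replicates) and the mean ± SD (n = 3) to the right of each group. The groups overlap in every panel, and gamma genes reach 32.9 in GC 3 and 27.9 in vehicle 3 but 18.4 in GC 1 and 12.8 in vehicle 1.

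No segment gene passed the test for a difference between GC and vehicle. Among 11649 genes tested by limma on log2(normalized count + 1), 0 passed an adjusted p of 0.05 (0%), and 0 of the 125 segment genes did. At an unadjusted p under 0.05 limma found 3 of the 125 segment genes (2.4%), all higher in GC: Trav2, Trbv13-3 and Trbv19. Over all genes 7.19% met that mark, 2.12% on the higher side and 5.07% on the lower side. By edgeR 4 segment genes met the unadjusted mark (3.2%, against 6.07% of all genes tested) and 0 passed after adjustment, and by DESeq2 these counts were 5 of 141 (3.55%, against 7.04%) and 0 (against 0.0143% of all genes).

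The direction of the fold changes leaned upward for alpha segments and not for beta segments. Of the 125 segment genes 86 had a log2 fold change above 0 (68.8%), against 48.5% of all genes tested, and the median was 0.19 against -0.0079 over all genes. Trav segments contributed 65 above 0 and 27 below (median 0.20, range -0.65 to 0.96), but many Trav copies had nearly equal reads in every library, as described further on, so these counts may not be separate measurements. Trbv segments split evenly, with 9 above and 9 below 0 (median -0.012, range -0.63 to 0.69). The 3 GC values lay wholly above the 3 vehicle values for 6 of the 125 genes (4.8%, against 6.4% of all genes), namely Trav2, Trav8-1 and the near-identical pairs Trav15d-2-dv6d-2 with Trav15n-2 and Trav13d-2 with Trav13n-2. They lay wholly below for Trbv4 and Trav15d-1-dv6d-1 (1.6%, against 6.4%). Trav15n-1, the near-identical copy of Trav15d-1-dv6d-1, overlapped, with 64.5 normalized counts in GC 2 and 63.3 in vehicle 1. Trbv4 has an exon that overlaps another annotated gene. Apart from Trav2, Trav15d-1-dv6d-1 and Trav15n-1, these genes are named for this pattern, after their values were seen.

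Trbv19, which encodes Vβ6, was the most abundant beta V segment in every library. It had 6535, 12689 and 12248 normalized counts in GC libraries, against 5707, 4730 and 8926 in vehicle libraries. GC 2, GC 3 and vehicle 3 were high and GC 1, vehicle 1 and vehicle 2 were low, so the groups overlapped. The log2 fold change was 0.69 ± 0.29 (SE, limma, unadjusted p = 0.038, adjusted p = 0.62), and it ran between 0.49 without vehicle 2 and 1.002 without GC 1. The unadjusted p depended on the method, at 0.037 by edgeR, 0.074 by DESeq2 and 0.106 by limma without a trend. As a share of all Trbv reads Trbv19 took 28.2%, 45.5% and 40.3% in GC libraries, against 25.3%, 21.6% and 40.3% in vehicle libraries (38.0 ± 8.87% and 29.1 ± 9.90%, SD, n = 3 each). Per kilobase of exon its mean level of 14969 normalized counts was followed by Trbv12-2 at 5894, and within single libraries Trbv19 exceeded the second segment by this measure 2.01, 3.24 and 2.64 times in GC libraries and 1.48, 1.33 and 2.84 times in vehicle libraries.

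The 18 other Trbv segments together did not follow Trbv19. Their summed normalized counts were 16607, 15174 and 18138 in GC libraries, against 16837, 17161 and 13217 in vehicle libraries. Trbv reads as a whole, without the constant genes, made 347.6, 413.6 and 450.4 RPM in GC libraries, against 336.2, 332.2 and 327.5 in vehicle libraries. Those V-only groups did not overlap (log2 difference 0.27, exact p = 0.1, the smallest this design can give). With the constant genes included, as above, they did.

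The other segments known to respond to Mls-1a behaved differently from one another. Trbv13-3 (Vβ8.1) had 1378, 1819 and 1756 normalized counts in GC libraries, against 1068, 1064 and 1465 in vehicle libraries (log2 fold change 0.47 ± 0.17, SE, limma unadjusted p = 0.022, adjusted p = 0.62). All but GC 1 of the GC libraries lay above every vehicle library. Trbv17 (Vβ9) had 1245, 2591 and 3065 normalized counts in GC libraries, against 1378, 2075 and 1499 in vehicle libraries, with GC 1 the lowest of all 6 and GC 3 the highest (log2 fold change 0.40, limma adjusted p = 0.67). The fold change was 0.15 without GC 3 and 0.79 without GC 1. Trbv29 (Vβ7) had 1362, 1087 and 1428 in GC libraries, against 1369, 1552 and 1146 in vehicle libraries (log2 fold change -0.07, limma adjusted p = 0.88), and its sign turned without GC 2 or without vehicle 2.

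Together these 4 segments made 45.5%, 65.3% and 60.9% of Trbv reads in GC libraries, against 42.2%, 43.0% and 58.9% in vehicle libraries. The libraries high in Trbv19 were again the high ones, since Trbv19 makes up most of the sum. Donor T cells before transplantation were not analysed here, so none of these shares has a starting value.

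**Figure D2:**
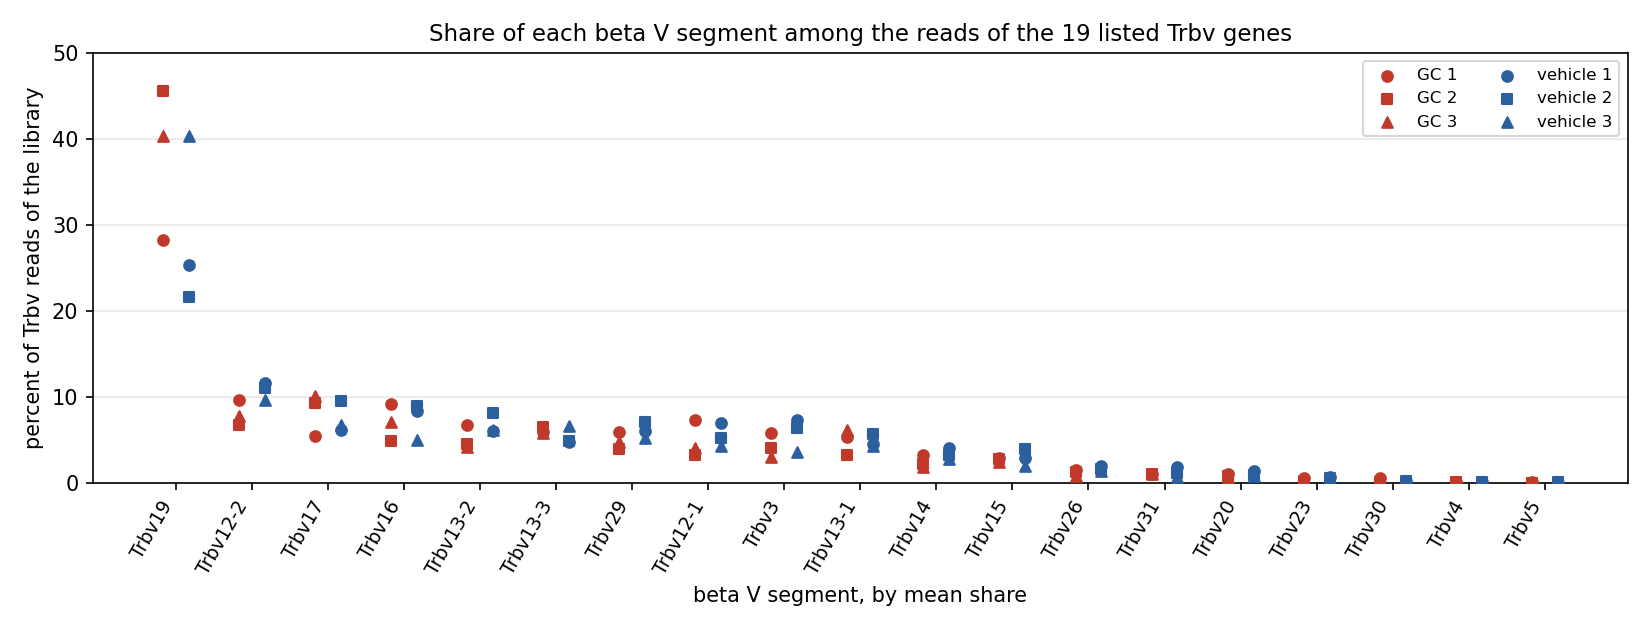
Share of each of the 19 beta V segments in the Trbv reads of a library (y axis, percent), ordered by mean share, with GC libraries in red to the left and vehicle libraries in blue to the right, and a symbol per replicate number. Trbv19 lies at 28.2% to 45.5% in GC and 21.6% to 40.3% in vehicle libraries, and the next, Trbv12-2, reaches at most 11.6%.

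Among beta segments outside the Mls-1a group, Trbv12-2 (Vβ5.1) was the most abundant, with 2216, 1881 and 2342 normalized counts in GC libraries, against 2623, 2414 and 2140 in vehicle libraries (log2 fold change -0.16, and -0.07 without GC 2, limma adjusted p = 0.68). Trbv16 (Vβ11) had 2117, 1345 and 2156 in GC libraries, against 1875, 1959 and 1111 in vehicle libraries, so that GC 2 and vehicle 3, both high in Trbv19, were its 2 lowest. Trbv13-1 (Vβ8.3) stood out in GC 3, at 1871 normalized counts, against 1219 and 903 in the other GC libraries and 1019, 1242 and 950 in vehicle libraries. Trbv23 (Vβ20) showed the lowest fold change of the class, with 127, 61.5 and 61.6 in GC libraries, against 163, 121 and 92.9 in vehicle libraries (log2 fold change -0.63, and -0.98 without GC 1, limma adjusted p = 0.63). Trbv30, named after its values were seen, had 118 normalized counts in GC 1 and 20.8 and 33.1 in the other GC libraries, against 34.9, 31.4 and 26.1 in vehicle libraries.

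The spread of reads over V segments was summarised as an effective number, the exponential of the Shannon entropy of the read shares, which equals the number of segments if all are used equally. For beta V segments it was 11.2, 7.73 and 8.43 in GC libraries, against 11.8, 12.1 and 8.69 in vehicle libraries (9.12 ± 1.84 and 10.9 ± 1.89, SD, n = 3 each, difference -1.74, exact permutation p = 0.2, adjusted p = 0.6). The difference was -2.83 without vehicle 3 and -1.05 without GC 2. The low libraries were those with much Trbv19. Without Trbv19 the values drew together, at 12.7, 12.1 and 11.5 in GC libraries and 12.8, 12.3 and 12.1 in vehicle libraries (difference -0.34, exact p = 0.4). That setting was chosen after seeing the data.

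Alpha V reads were spread about as evenly in both groups, a measure that does not compare which segments were used. The effective number was 62.1, 61.1 and 57.7 of 94 segments in GC libraries, against 60.7, 59.6 and 60.9 in vehicle libraries (60.3 ± 2.32 and 60.4 ± 0.709, SD, n = 3 each, difference -0.13, exact p = 1). The sign turned without GC 3, the lowest library (difference 1.18), without vehicle 1 (0.0005306) or without vehicle 3 (0.14). Near-identical copies, described further on, raise this number. With the d and n copies summed it was 25.3, 24.9 and 23.7 in GC libraries, against 24.0, 24.4 and 25.1 in vehicle libraries.

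**Figure D3:**
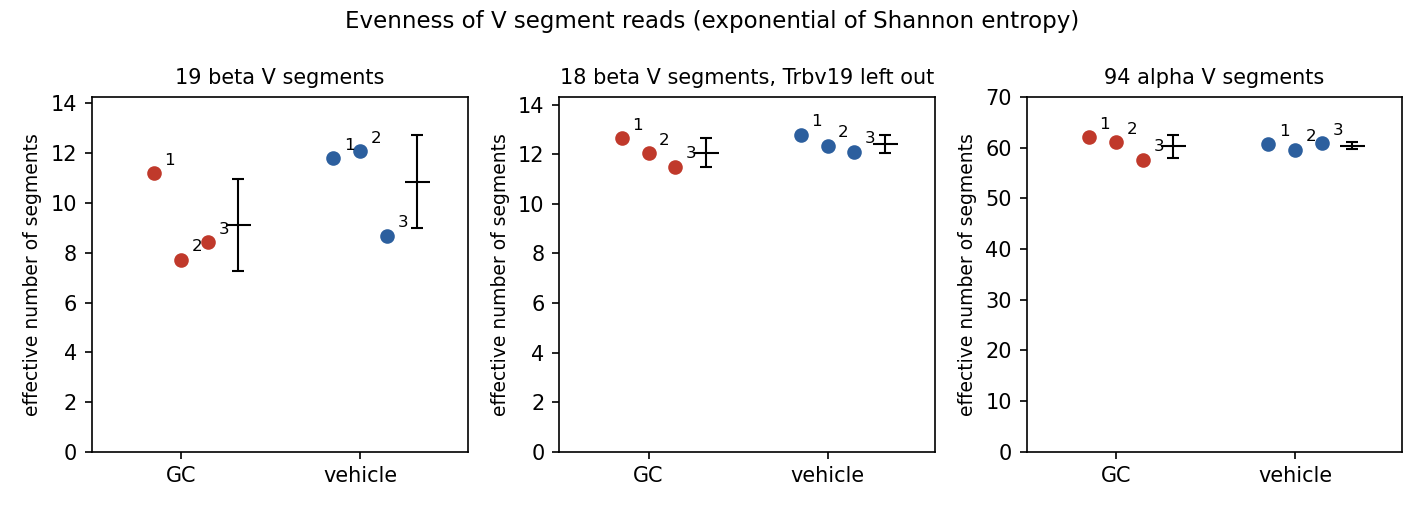
Effective number of V segments (y axis) for the 19 beta V segments, the same without Trbv19, and the 94 alpha V segments, with 1 point per library (red, GC; blue, vehicle; numbers are replicates) and mean ± SD (n = 3). The beta values separate GC 2, GC 3 and vehicle 3 (7.73 to 8.69) from the other libraries (11.2 to 12.1), whereas without Trbv19 all 6 lie between 11.5 and 12.8.

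Both beta constant genes were abundant and nearly constant in proportion. Trbc2 had 63830, 65746 and 73465 normalized counts in GC libraries, against 65475, 65230 and 57512 in vehicle libraries (log2 fold change 0.11, limma adjusted p = 0.68). Trbc1 had 35647, 39188 and 46636 in GC libraries, against 35641, 39875 and 34059 in vehicle libraries (log2 fold change 0.14, limma adjusted p = 0.67, with 0.04 without GC 3 and 0.23 without GC 1). Trbc1 made 35.8%, 37.4% and 38.8% of their summed reads in GC libraries, against 35.3%, 37.9% and 37.2% in vehicle libraries (difference 0.54 percentage points, exact p = 0.7, adjusted p = 1). The difference changed sign without GC 3 or without vehicle 1. Over their whole spliced length (737 and 692 bases) the 2 genes are 83.2% identical, with 124 base changes, gaps included. Their first exons, 375 bases each, differ at 1 base, so the split of reads from that exon is uncertain. The 60 bases around that base show how alike the first exons are, with the differing base in capitals (GRCm39 plus strand, Trbc1 chr6:41515381-41515440, Trbc2 chr6:41523893-41523952).
Trbc1: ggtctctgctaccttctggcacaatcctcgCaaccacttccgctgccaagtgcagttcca
Trbc2: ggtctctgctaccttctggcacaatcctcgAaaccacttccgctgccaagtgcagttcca

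Alpha V reads were spread over many segments in families. Counted over whole families, Trav12 (9 segments) made 20.3%, 18.7% and 19.7% of Trav reads in GC libraries, against 23.1%, 19.6% and 17.3% in vehicle libraries. Trav7 (14 segments) made 15.5%, 17.3% and 16.8% in GC libraries, against 13.8%, 14.6% and 18.4% in vehicle libraries, and Trav3 (5 segments) made 12.02%, 15.3% and 17.3%, against 12.3%, 11.01% and 15.8%. Trav16 (3 segments) made 7.05%, 5.96% and 5.07% in GC libraries, against 8.81%, 10.2% and 5.57% in vehicle libraries. Each of these family shares overlapped between the groups.

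Trav2 had the smallest limma p of the segment genes. Its normalized counts were 216, 244 and 223 in GC libraries, against 148, 108 and 166 in vehicle libraries, and the groups did not overlap (log2 fold change 0.71 ± 0.25, SE, unadjusted p = 0.019, limma adjusted p = 0.62). It lies on chromosome 14, at 52804655 to 52805508 on GRCm39, and made 0.998%, 0.936% and 0.879% of Trav reads in GC libraries, against 0.657%, 0.480% and 0.781% in vehicle libraries. In the other direction, Trav16d-dv11 had 268, 207 and 230 normalized counts in GC libraries, against 399, 440 and 236 in vehicle libraries (log2 fold change -0.56, limma adjusted p = 0.62), with vehicle 3 inside the range of GC.

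Among the most abundant alpha segments, Trav12-2 had 1029, 970 and 1216 normalized counts in GC libraries, against 1050, 728 and 736 in vehicle libraries (log2 fold change 0.37, limma adjusted p = 0.62). Trav3d-3 had 928, 1430 and 1682 in GC libraries, against 939, 855 and 1273 in vehicle libraries (log2 fold change 0.38, limma adjusted p = 0.63). The libraries high in Trav3d-3 were those high in Trbv19. Trav14n-1 had 321, 447 and 665 in GC libraries, against 298, 249 and 381 in vehicle libraries (log2 fold change 0.58, limma adjusted p = 0.62). Without GC 3 the log2 fold change was 0.19 for Trav3d-3 and 0.31 for Trav14n-1, and without GC 1 it was 0.62 for Trav3d-3 and 0.84 for Trav14n-1. Trav12d-3 and its copy Trav12n-3 varied little, between 959 and 1157 normalized counts in GC libraries and between 941 and 1143 in vehicle libraries.

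A few alpha segments were high in 1 library alone. Trav9n-2 had 60.6, 50.6 and 57.0 normalized counts in GC libraries, against 51.3, 252 and 53.2 in vehicle libraries, so vehicle 2 was 4.73 times the median of the others. Its copy Trav9d-2 showed the same pattern, with 249 in vehicle 2. Trav6-2 peaked in vehicle 3, at 135 normalized counts, against 34.6, 61.5 and 72.6 in GC libraries and 53.4 and 48.7 in the other vehicle libraries. These single-library peaks are descriptions of those libraries and have no replicate check.

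Segments of innate-like T cells were present at low shares. Trav1, which pairs with Traj33 in MAIT cells, had 179, 247 and 219 normalized counts in GC libraries, against 165, 305 and 235 in vehicle libraries. Trav11, the segment of the invariant NKT cell receptor, had 122, 115 and 67.1 in GC libraries, against 109, 42.2 and 100.2 in vehicle libraries, and its copy Trav11d had nearly equal values. Neither segment is restricted to those cells. Of 6 marker genes of NKT and MAIT cells, 3 were high enough to test and 0 passed.

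The C57BL/6 alpha locus holds duplicated blocks of V segments, marked d and n in the symbols, and these copies affect what the counts mean. Among Trav segments averaging at least 50 reads, 14 pairs (28 segments) had reads within 5% of each other in all 6 libraries. Of the 14 such pairs whose last exons were identical in sequence, 12 were within that limit. Of 7 pairs with 1 to 3 differing bases 2 were, and of 48 pairs with 4 to 10 and 3417 with more, 0 were. No Trbv pair was within the limit. The exceptions among identical last exons were Trav7d-6 with Trav7n-6 (10.4% apart at most) and Trav9d-2 with Trav9n-2 (13.7%). Among pairs with 1 differing base in the last exon, Trav11 with Trav11d (1.70% apart at most) and Trav7-2 with Trav7d-2 (1.003%) were within the limit, whereas Trav7-4 with Trav7d-4 (55.5%) and Trav13d-1 with Trav13n-1 (31.7%) were not. The pairs within the limit differed in the length of that exon (291 and 290 bases, 287 and 288 bases). The pairs outside it had exons of equal length (292 bases and 279 bases).

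The Trav3 trio shows the pattern in the sequence itself. Over their last 150 bases, on the plus strand of chromosome 14 in GRCm39, Trav3d-3 (chr14:53210346-53210495) and Trav3n-3 (chr14:53521483-53521632) were identical, and Trav3-3 (chr14:53903814-53903963) differed at the 2 positions in capitals.
Trav3d-3: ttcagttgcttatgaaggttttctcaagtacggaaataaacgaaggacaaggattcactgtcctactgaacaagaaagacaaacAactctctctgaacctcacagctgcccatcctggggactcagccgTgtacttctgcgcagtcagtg
Trav3n-3: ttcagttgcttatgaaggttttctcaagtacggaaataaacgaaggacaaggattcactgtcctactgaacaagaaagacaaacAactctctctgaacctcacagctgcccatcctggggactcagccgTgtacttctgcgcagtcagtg
Trav3-3: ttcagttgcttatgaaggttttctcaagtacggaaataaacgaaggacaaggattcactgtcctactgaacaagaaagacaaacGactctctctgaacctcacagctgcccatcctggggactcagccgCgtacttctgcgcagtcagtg
Trav3n-3 had 926, 1428 and 1655 normalized counts in GC libraries, against 939, 852 and 1260 in vehicle libraries, within 1.59% of the reads of Trav3d-3 in each library. Trav3-3 had 604, 886 and 797 in GC libraries, against 768, 637 and 649 in vehicle libraries, and differed from Trav3d-3 by up to 52.6%. Reads of the 14 near-equal pairs made 46.6%, 46.4% and 49.3% of Trav reads in GC libraries, against 45.4%, 43.3% and 46.8% in vehicle libraries. Whether a read counted for 1 copy was also counted for the other was not tested, and the level of a single copy is uncertain.

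**Figure D4:**
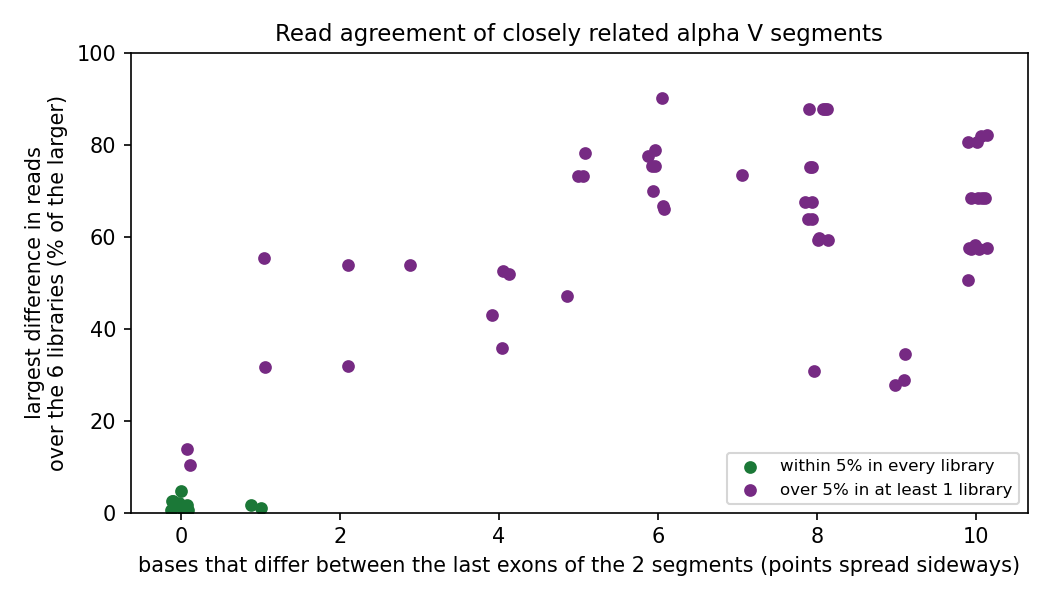
Each point is a pair of alpha V segments averaging at least 50 reads, placed by the number of bases that differ between their last exons (x axis, up to 10) and by their largest difference in reads over the 6 libraries, as a percent of the larger (y axis). Pairs within 5% in every library (green) have 0 or 1 differing base, and pairs with 4 or more differences are 27.7% to 90.3% apart.

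Gamma reads came mainly from a single V and constant pair. Trgc2 (chromosome 13, 19488819 to 19491721, minus strand) had 769, 1325 and 1457 normalized counts in GC libraries, against 495, 726 and 1316 in vehicle libraries (log2 fold change 0.55 ± 0.35, SE, limma adjusted p = 0.63). Trgv2 had 211, 454 and 455 in GC libraries, against 141, 214 and 376 in vehicle libraries (log2 fold change 0.65 ± 0.41, SE, limma adjusted p = 0.63). In both genes GC 2, GC 3 and vehicle 3 were the high libraries. Trgv2 made 85.9%, 93.5% and 95.2% of Trgv reads in GC libraries and 87.2%, 87.2% and 95.7% in vehicle libraries, and Trgc2 made 78.7%, 85.6% and 83.6% of Trgc reads in GC libraries and 71.3%, 76.5% and 88.1% in vehicle libraries. Without vehicle 1 the log2 fold change was 0.22 for Trgc2 and 0.31 for Trgv2, and without vehicle 3 it was 0.93 for Trgc2 and 1.02 for Trgv2.

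The other gamma constant genes did not share this order. Trgc1 had 110, 71.5 and 179 normalized counts in GC libraries, against 61.1, 99.5 and 96.0 in vehicle libraries, and Trgc4 had 79.7, 140 and 101 in GC libraries, against 133, 104 and 69.9 in vehicle libraries. Trgc3 stayed between 5.45 and 20.5 in all 6 libraries. Trgv1 stayed between 9.39 and 24.8, and Trgv3 and Trgv4 were too low to test.

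Delta transcripts did not move with gamma. Trdc, the only delta constant gene, had 43.3, 83.4 and 69.9 normalized counts in GC libraries, against 91.6, 45.4 and 54.3 in vehicle libraries, and Trdv1 had 67.5, 48.6 and 45.0 in GC libraries, against 33.8, 33.5 and 68.9 in vehicle libraries. An exon of Trdc overlaps another annotated gene, and without strand information such reads cannot be assigned. Trgc2 had 17.8, 15.9 and 20.9 reads per Trdc read in GC libraries, against 5.41, 16.0 and 24.3 in vehicle libraries. A gamma-delta T cell needs both chains, whereas alpha-beta T cells can transcribe a gamma gene without a surface gamma-delta receptor. Of 8 gamma-delta markers 5 were listed, and their sum (6.52, 10.8 and 14.1 RPM in GC libraries, against 7.35, 5.61 and 8.29 in vehicle libraries) was mostly Maf, which other T cells also express. The more specific Sox13 was between 0 and 37.6 normalized counts.

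The order of libraries seen in Trbv19 and Trgc2 also appeared outside these genes. Neutrophil markers, of which 9 of 12 were listed, summed to 26.1, 182 and 123.6 RPM in GC libraries, against 8.12, 5.14 and 57.4 in vehicle libraries, so GC 2, GC 3 and vehicle 3 were the highest here too. Ltf, the most abundant of them, was at 0 in vehicle 1. Mitochondrial reads were lowest in the same 3 libraries, at 0.902%, 0.400% and 0.615% in GC libraries and 0.910%, 1.13% and 0.757% in vehicle libraries. The part of either in the segment values was not tested.

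Reads on the 14 chosen immunoglobulin genes, Jchain included, were nearly all Ighm, the mu heavy chain constant gene. It had 22310, 17909 and 19805 normalized counts in GC libraries, against 22526, 26452 and 17621 in vehicle libraries, and made 93.2% to 96.9% of the reads of those 14 genes (log2 fold change -0.14 ± 0.15, SE, limma adjusted p = 0.75). Without vehicle 2 the fold change was 0.0003. Igkc, the kappa light chain constant gene, had 1322, 513 and 1373 in GC libraries, against 1171, 1550 and 905 in vehicle libraries (log2 fold change -0.27 ± 0.36, SE, limma adjusted p = 0.80), and its sign turned without GC 2. An exon of Igkc also overlaps another annotated gene.

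These constant gene reads came with very few V segment reads. For every 1000 Ighm reads there were 0.893, 1.88 and 1.16 Ighv reads in GC libraries, against 1.07, 0.572 and 1.07 in vehicle libraries, and for every 1000 Igkc reads there were 7.20, 21.3 and 12.7 Igkv reads in GC libraries, against 3.72, 0 and 5.77 in vehicle libraries. The corresponding TCR ratios were 208 to 266 Trbv reads per 1000 Trbc reads and 232 to 314 Trgv reads per 1000 Trgc reads. Only 6 Ighv and 4 Igkv segments were among the genes analysed, which limits this comparison. Ighv6-3, the highest Ighv, had 15.6, 18.9 and 10.1 normalized counts in GC libraries, against 12, 8.65 and 5.22 in vehicle libraries. Jchain, the joining chain of secreted IgM and IgA, had 19.9, 16.9 and 7.35 in GC libraries, against 8.73, 6.49 and 25.0 in vehicle libraries.

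The few immunoglobulin V reads had a difference of the opposite sign to the constant genes. Ighv and Igkv RPM without the constant genes differed by 0.78 on the log2 scale, and the groups did not overlap (exact p = 0.1, the smallest possible). This rests on 23, 34 and 25 Ighv reads and 11, 11 and 19 Igkv reads in the GC libraries, against 22, 14 and 18 Ighv reads and 4, 0 and 5 Igkv reads in the vehicle libraries. The 0 Igkv reads in vehicle 2 allow a level of up to 0.0492 RPM, by a limit of 3 reads that covers counting error only.

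Markers of B cells and of pro-B and pre-B cells were low beside these reads, and plasma cell markers ranged from abundant to nearly absent. Of 13 B cell markers 11 were listed, and their sum was 19.2, 26.5 and 26.2 RPM in GC libraries, against 19.6, 22.9 and 25.8 in vehicle libraries, most of it Cd79b. Cd79a, a signalling chain of the B cell receptor, had 38.1, 8.93 and 8.27 normalized counts in GC libraries, against 12, 22.7 and 15.7 in vehicle libraries. Of 8 pro-B and pre-B markers 3 were listed, summing to between 1.65 and 3.62 RPM in GC libraries and between 1.82 and 3.58 in vehicle libraries. Of 10 plasma cell markers 9 were listed. Their sum was 723, 793 and 746 RPM in GC libraries, against 756, 722 and 728 in vehicle libraries. Of the 8 tested, 3 had a fold change above 0 and 5 below, where 48.5% of all genes lay above 0. At an unadjusted limma p under 0.05 there were 3, all lower in GC, against 5.07% of all genes on that side. After adjustment 0 passed. Txndc5, Xbp1 and Slamf7, the 3 above 0 and the most abundant of the list, ranged between 10601 and 16823 normalized counts over the 6 libraries. Sdc1, one of the 3 lower, had 25.97, 36.7 and 99.3 in GC libraries, against 105, 128 and 88.7 in vehicle libraries (limma adjusted p = 0.62). Irf4 and Prdm1 ranged between 1562.5 and 4165.2 normalized counts, and Derl3 and Pou2af1 between 52.59 and 216.2. Tnfrsf17 was at 0 in every library but vehicle 2 (5.405), and Mzb1 was not analysed here. The source of the Ighm reads was not tested.

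**Figure D5:**
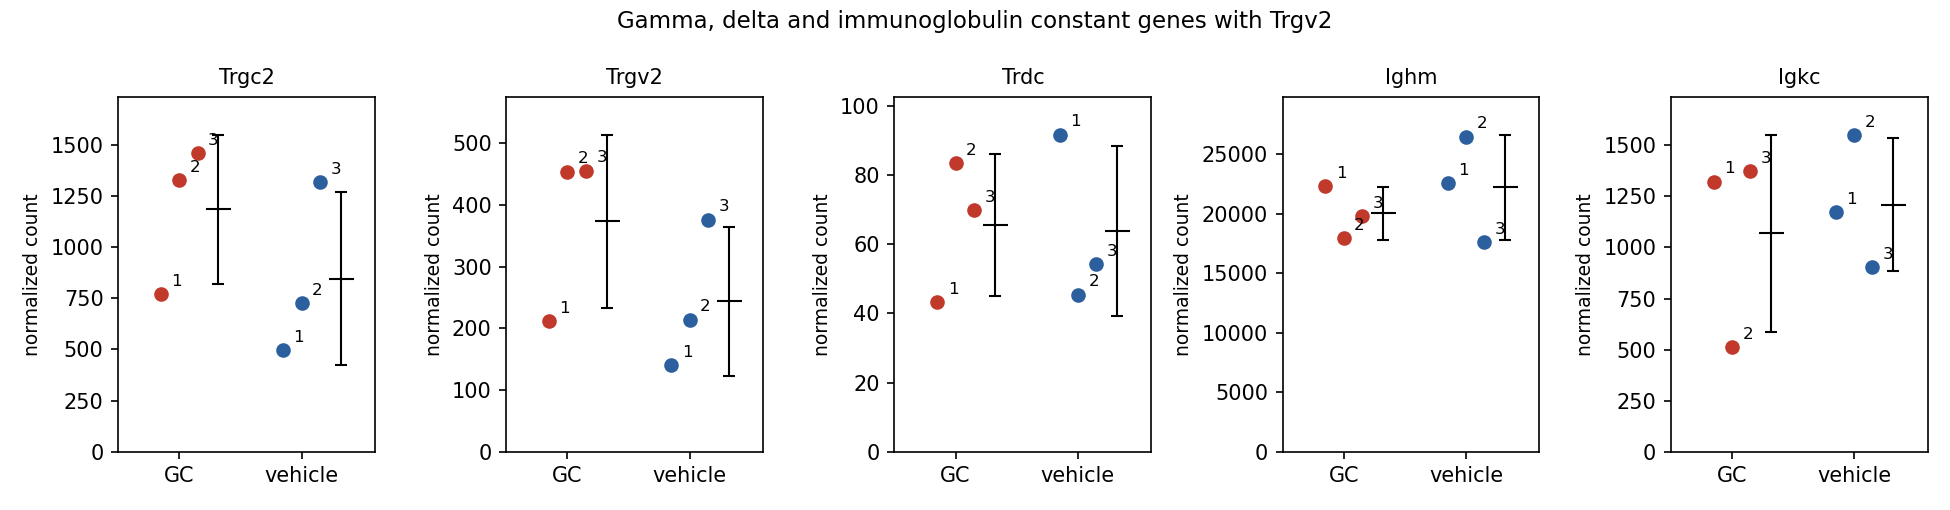
Normalized counts (y axis) of Trgc2, Trgv2, Trdc, Ighm and Igkc, with 1 point per library (red, GC; blue, vehicle; numbers are replicates) and mean ± SD (n = 3). Trgc2 and Trgv2 are high in GC 2, GC 3 and vehicle 3, Trdc is highest in vehicle 1, and GC 2 is lowest in Igkc at 513.

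Genes that make and assemble the receptor showed no change past the test. Of 14 V(D)J recombination genes 11 were listed and tested, 5 with a fold change above 0 and 6 below, and 0 passed. Hmgb2, a DNA-bending cofactor of the recombinase that is also abundant in dividing cells, was the highest, and Prkdc, the DNA-dependent protein kinase of end joining, had 2992, 2470 and 1532 normalized counts in GC libraries, against 3581, 3522 and 2721 in vehicle libraries (limma unadjusted p = 0.044, adjusted p = 0.62). The recombinase genes Rag1 and Rag2 and the terminal transferase gene Dntt were not analysed here. Of 7 receptor assembly genes, which include the CD3 chains and both CD8 chains, 5 lay above 0 and 2 below and 0 passed. The highest, Cd8b1, was between 86959 and 109279 normalized counts in GC libraries and between 86287 and 98550 in vehicle libraries.

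Markers of the other lymphocytes and of red cells likewise had 0 genes past the adjusted threshold. Of 8 CD4 T cell markers tested 8 had a fold change below 0 (median -0.24, with 2 at an unadjusted limma p under 0.05). Of 6 NK cell markers 3 lay above and 3 below 0, and of 3 erythroid markers tested 3 lay below 0, with 2 at an unadjusted p under 0.05. Of the 9 neutrophil markers 8 lay above 0, with 5 at an unadjusted p under 0.05 and 0 after adjustment. Beside these counts, 48.5% of all genes tested lay above 0. At an unadjusted limma p under 0.05, 2.12% of all genes were higher and 5.07% lower in GC. Over all genes, 45 passed when GC 1 was left out (2 higher and 43 lower in GC), and the segment genes among them numbered 0. By the chi-square per gene between libraries, GC 1 was nearer to vehicle 1, 2 and 3 (21.25, 35.8 and 31.2) than to GC 2 (104) or GC 3 (149). GC 2 was likewise nearer to vehicle 3 (62.2) than to GC 3 (93.9). What sets GC 1 apart from the other GC libraries was not tested.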

How the data were processed

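Bulk RNA-Seq was analysed from 3 GC and 3 vehicle libraries, grouped by their labels. The authors aligned reads with STAR to GRCm39 (Gencode M26), counted them with summarizeOverlaps defaults, which drop reads overlapping more than 1 gene, and deposited a normalized signal, gene counts divided by DESeq2 size factors, as the file's steps show. No version is given in the sources used here. The SMART v4 and Nextera XT kits do not mark strand, so the 9 segment genes with an exon overlapping another gene are uncertain.

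Whole reads were recovered for 100% of values within 0.001, although in GC 2 the size factor is too near 1 to judge by its steps. Positions came from the Gencode M39 annotation of GRCm39, where 141 of 141 genes were found. limma 3.58.1 with a trend was applied to genes at 10 or more in 3 or more libraries (R 4.3.3) using log2(normalized count + 1), with Benjamini-Hochberg adjustment over all 11649 genes at 0.05. edgeR 4.0.16 and DESeq2 1.42.0 on the recovered reads were alternatives, and edgeR called 0 genes. Locus shares, effective numbers and the Trbc1 share used two-sided exact permutation tests over libraries, adjusted over the 5 shares and over the 3 other values. Scripts were tested on simulated data.

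Named genes were all constant genes, the highest segments of each class, the 10 smallest p in each direction, the segments most uneven across libraries, and the MAIT, NKT and Mls-1a segments, of which those that matter are printed. The genes and marker lists were chosen with earlier results of these data known. The smallest chi-square per gene between libraries was 21.25, for GC 1 with vehicle 1. This is above counting noise, so no library repeated the counts of another. Repeat libraries of the same pool of mice cannot be told from separate pools by it, as only counting noise is compared. Counting limits ranged between 0.0390 and 0.0492 reads per 1000000 (3 reads per library).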

Additional observations from a re-analysis of the deposited data

How the results depend on the processing

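The number of segment genes past the adjusted threshold was 0 under all 16 alternatives: edgeR with the deposited size factors or TMM, DESeq2, TMM-scaled limma, no trend, other pseudocounts and filters, the replicate block, and each library left out. Over all genes the count was 2 with DESeq2 and 1 with limma without a trend, and 0 to 45 with 1 library left out, where 45 came without GC 1. Replicate numbers did not pair the libraries (correlations of same-numbered deviations 0.063, -0.135 and 0.129), and with the number as a block limma called 0 genes, with 983 at an unadjusted p under 0.05 against 838.

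Fold changes of Trav2 (0.53 to 0.84), Trbv19 (0.49 to 1.002), Trbv13-3 (0.39 to 0.62) and Trgc2 (0.22 to 0.93) kept their sign with each library left out. Others turned: Trbv29 ran between -0.18 and 0.052 (0.035 without vehicle 2), Ighm between -0.29 and 0.0003034 and Igkc between -0.52 and 0.19. The log2 difference in share ran between -0.043 and 0.37 for delta and between -0.31 and 0.0064 for immunoglobulin genes, and without constant genes the immunoglobulin difference was 0.78. The alpha V effective number difference ran between -1.03 and 1.18, and was 0.11 with d and n copies summed, 0.040 per exon length and 0.063 with 1 copy of each near-equal pair left out, a setting chosen after seeing the data. The Trbc1 share difference ran between -0.23 and 1.30. The cause of these turns was not tested.

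Planned measures of J segment usage were not run, because no J segment was among the genes analysed. Delta, Ighv and Igkv values rest on under 100 reads per class and library, so small differences were not detectable there.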
